A study of Mus musculus with 4 samples.

Results

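The genes described here act on amyloid-beta after it is made or on its precursor, or belong to the BRI family. They are the metallopeptidases Ide, Mme, Ece1, Ece2 and Ace, the BRI family genes Itm2a, Itm2b and Itm2c, and the receptors Sorl1 and Lrp1. Members were every non-control probe whose systematic name was a RefSeq accession of 1 of these 10 genes. This gave 11 of the 55681 probes on the array, against 20887 gene symbols named by accession in all. Mme had 2 probes and each of the other genes had 1. Of the 11 probes, 9 passed the filter on low signals, 1 for each gene except Mme. The transcripts of Itm2b and Itm2c, encoding BRI2 and BRI3, were higher in APPswe/PS1dE9 cultures than in WT cultures, by 1.32-fold and 1.55-fold. The other 7 measured members did not pass the test. Of all probes that passed the filter, 6.89% were higher and 1.90% lower. The call held in 9 of 17 alternative analyses for Itm2b and in 15 for Itm2c. Neither gene passed when replicate 3 was left out, or with only the 2 arrays that paired cultures of the same sex.

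Expression was compared in cultures of neural cells from APPswe/PS1dE9 and wild-type (WT) mouse embryos, both C57BL/6 per the labels. Neural precursor cells from the telencephalon at embryonic day 13 grew for 5 days as neurospheres with EGF and FGF2, each at 20 ng/ml. They were then kept for 7 days without either factor on poly-L-lysine and laminin, in both genotypes, to differentiate. The labels call the RNA that of differentiated cells in 1 field and of neurospheres in another, so the stage at which it was taken is not settled. RNA (100 ng of total RNA per culture) was amplified and hybridised, 1 APPswe/PS1dE9 RNA with 1 WT RNA on each of 4 two-colour arrays. The APPswe/PS1dE9 mouse carries transgenes of familial Alzheimer's disease, among them a chimeric mouse and human APP, driven by the mouse prion protein promoter. APPswe/PS1dE9 RNA was labelled with Cy3 on replicates 1 and 2 and with Cy5 on replicates 3 and 4. The design names the replicates as biological but not the animals or litters behind them, so the p-values reflect how far these arrays differ at a given dye orientation, which may be technical.

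Amyloid-beta is cut from the amyloid precursor protein APP by beta- and gamma-secretase. Its amount depends on clearance as much as on release: zinc metallopeptidases such as insulin-degrading enzyme and neprilysin cut the peptide, and LRP1 takes it up into cells. SORL1 moves APP between the Golgi and endosomes and so affects how often the secretases meet it. The BRI proteins are membrane proteins with a BRICHOS domain, a fold that acts as a chaperone against amyloid formation. BRI2 and BRI3 bind APP and hinder its cleavage, and mutations of human ITM2B cause familial British and familial Danish dementia.

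The promoters of the 3 BRI genes are shown because 2 of these genes were higher in APPswe/PS1dE9 cultures and the other did not pass the test. Each run is the 250 bases before the gene's 5′-most RefSeq transcript start in GRCm38.p6, written 5′ to 3′ on the gene's strand. Any other listed start of a gene was not searched. Capitals mark GGGCGG, the core GC box that Sp factors bind, on either strand. Those of Itm2a and Itm2b lie on the minus strand at chrX:107403361-107403610 and chr14:73385290-73385539, and that of Itm2c on the plus strand at chr1:85894260-85894509.
Itm2a: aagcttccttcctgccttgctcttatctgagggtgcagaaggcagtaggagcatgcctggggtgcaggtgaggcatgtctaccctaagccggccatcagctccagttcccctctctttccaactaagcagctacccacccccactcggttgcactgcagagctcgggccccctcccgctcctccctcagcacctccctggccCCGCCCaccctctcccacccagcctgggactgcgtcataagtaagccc
Itm2b: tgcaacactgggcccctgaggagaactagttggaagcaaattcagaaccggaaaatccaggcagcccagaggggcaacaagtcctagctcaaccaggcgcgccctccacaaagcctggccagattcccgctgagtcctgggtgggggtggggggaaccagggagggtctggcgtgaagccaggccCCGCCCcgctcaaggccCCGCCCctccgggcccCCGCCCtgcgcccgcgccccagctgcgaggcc
Itm2c: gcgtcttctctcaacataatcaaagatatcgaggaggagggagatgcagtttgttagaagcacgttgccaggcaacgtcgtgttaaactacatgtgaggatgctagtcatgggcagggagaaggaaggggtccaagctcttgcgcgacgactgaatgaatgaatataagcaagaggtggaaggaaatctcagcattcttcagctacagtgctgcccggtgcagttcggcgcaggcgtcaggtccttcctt
The Itm2b window held 3 GC boxes, at bases -65 to -60, -48 to -43 and -32 to -27 counted from the start. The Itm2a window held 1 GC box, at -48 to -43, and the Itm2c window held 0. Its GC content of 50.8% was below the 68.8% of Itm2b and the 62.8% of Itm2a, with a median of 52.4% over all promoters in the table. The 2 genes that were higher therefore did not share this motif in these windows. GGGCGG was present in 7 of the 10 member windows and in 32.7% of 32851 promoter windows of the same length. Each member gave 1 window, while this share and those below were taken over every promoter window. No choice of 1 window per gene was made for them, so the sets are unlike. CCAAT was present in 3 members (33.8% of promoters), TATAAA in 1 (12.4%), TTCNNNGAA in 2 (7.02%), CACGTG in 1 (6.02%) and GAAA repeated after a gap of 2 bases in 0 (2.98%), counting both strands.

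Ratios are log2 ratios of APPswe/PS1dE9 over WT on each array. Levels are log2 intensities of each channel after normalisation, and are compared only within a probe, except that levels are summed over the probes of a cell type list. On these arrays each channel had 47.5% to 59.6% of its probe spots well above background, and none of the 59305 probe spots was saturated. Spearman correlations of the ratios across probes, which are not independent, were 0.46 and 0.54 between arrays of the same dye orientation and 0.10 to 0.25 between orientations. App, for which it is not known here whether the probe also reads the transgene, had a ratio of 0.12 ± 0.06 (SE, n = 4 arrays; limma adjusted p = 0.296). Prnp, the gene of the transgenes' promoter, had 0.75 ± 0.20 (limma adjusted p = 0.0717), and neither passed the test. Xist, an RNA of female cells, and the Y-linked Eif2s3y differed in opposite directions on 2 arrays. The Xist ratio was -2.85 on replicate 1 and 3.40 on replicate 3, and the Eif2s3y ratio was 5.02 and -5.19, so those arrays paired cultures of opposite sex. On replicates 2 and 4 both cultures had Xist well above background, and neither had Eif2s3y above it.

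Of the 9 measured members, 2 were higher in APPswe/PS1dE9 cultures at an adjusted p under 0.05 (limma, Benjamini-Hochberg over all 26898 kept probes, two-sided), where 6.89% of all kept probes were higher. None of the 9 was lower, where 1.90% of all kept probes were lower and 8.79% changed in either direction. With only 9 members tested, the count of 0 lower is close to what that share gives. The fitted ratio was positive for 8 of the 9 members, and the share of all kept probes with a positive one was not counted. The median was 0.14 against 0.01 over all kept probes (quartiles -0.09 and 0.12). The signs of Ide, Ece1 and Ace turned in some alternatives, and Ece1 was positive on 1 of 4 arrays. The ratio was positive on 4 of 4 arrays for 3 members, Ide, Itm2b and Itm2c, and for 15.7% of all kept probes. The levels of all 4 APPswe/PS1dE9 cultures lay above those of all 4 WT cultures for Itm2b and Itm2c alone among the members, and for 7.21% of kept probes. No member had levels of all APPswe/PS1dE9 cultures below all WT cultures, which 4.45% of kept probes had. With each array centred on its median and no loess, 1 member was higher and 0 lower, and over all probes 1559 were higher and 1675 lower, against 1852 and 512 with loess.

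**Figure D1:**
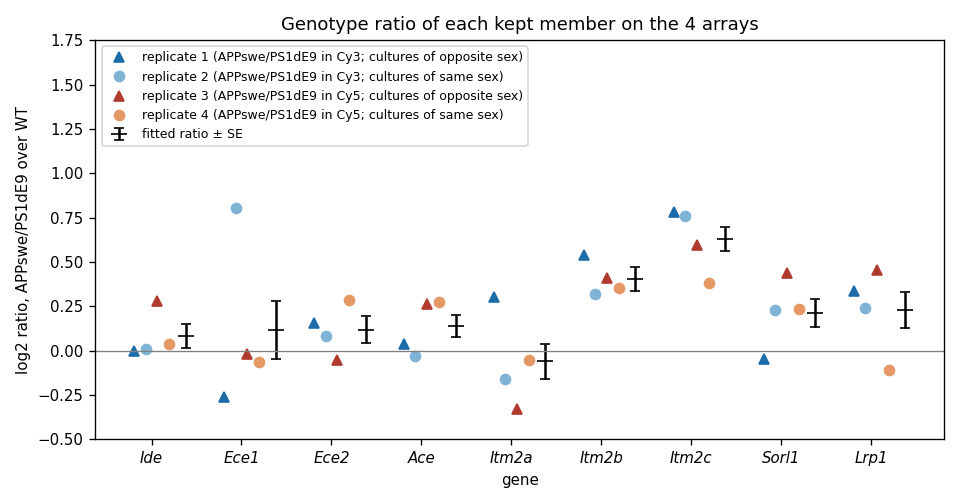
Log2 ratios of APPswe/PS1dE9 over WT for the 9 measured members (y axis: log2 ratio; x axis: gene), with 1 coloured point per array, blue with APPswe/PS1dE9 in Cy3 and red or orange with it in Cy5, triangles for arrays that paired cultures of opposite sex, and a black bar for the fitted ratio ± SE. All 4 points of Itm2b (0.32 to 0.54) and Itm2c (0.38 to 0.78) lie well above 0, and Ece1 is spread from -0.26 to 0.80.

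Among the BRI genes, Itm2c had the higher ratio of the pair that passed the test. Itm2c encodes BRI3, a BRI protein found mainly in brain that binds APP. Its level in the APPswe/PS1dE9 cultures was 12.37, 12.34, 12.18 and 12.03 on replicates 1 to 4. In the WT cultures its level was 11.59, 11.58, 11.59 and 11.65. The lowest APPswe/PS1dE9 level stood above the highest WT level, and the WT cultures spread less than the APPswe/PS1dE9 cultures (SD 0.0307 against 0.158, n = 4 each). The ratios were 0.78, 0.76, 0.60 and 0.38, and the fitted ratio was 0.63 ± 0.07 (SE, n = 4 arrays; limma adjusted p = 0.00410; 95% interval 0.47 to 0.79). The ratio was largest on replicates 1 and 2, with a mean of 0.77 with APPswe/PS1dE9 in Cy3 and of 0.49 with it in Cy5. The call was lost without replicate 3 (0.58, limma adjusted p = 0.0545) and with the 2 same-sex arrays as the only data (0.57, limma adjusted p = 0.157).

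Itm2b encodes BRI2, whose extracellular end is released by furin-like proteases. Its level in the APPswe/PS1dE9 cultures was 13.08, 12.95, 12.78 and 12.90 on replicates 1 to 4. The WT cultures had levels of 12.54, 12.63, 12.37 and 12.55. The genotypes did not overlap, and replicate 3 was the lowest array in both. The ratios were 0.54, 0.32, 0.41 and 0.35, with means of 0.43 with APPswe/PS1dE9 in Cy3 and 0.38 with it in Cy5. The fitted ratio was 0.41 ± 0.07 (SE, n = 4 arrays; limma adjusted p = 0.0189; 95% interval 0.24 to 0.57). Centring on the array median without loess gave 0.23 (limma adjusted p = 0.180), and the call was also lost without replicate 3 (adjusted p = 0.131), without replicate 4 (adjusted p = 0.132), with the same-sex arrays as the only data (0.34, adjusted p = 0.359) and with no filter on dim probes (adjusted p = 0.0597). Processed signals, the deposited table of the same signals and the opposite-sex arrays also ended it, so that it passed in 9 of 17 alternatives. Several of these keep the ratio of 0.41 and change only its error or the probes tested. Itm2c kept its call under the same median centring (0.47, limma adjusted p = 0.00187).

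Itm2a, the X-linked BRI gene, is known from differentiating cartilage, muscle and T cells. Its level in the APPswe/PS1dE9 cultures was 9.40, 8.94, 8.92 and 9.15 on replicates 1 to 4. In the WT cultures it was 9.10, 9.10, 9.25 and 9.20. The APPswe/PS1dE9 culture was the higher on replicate 1 and the lower on the other arrays, so the groups overlapped. The ratios were 0.30, -0.16, -0.33 and -0.05, and the fitted ratio of -0.06 ± 0.10 (SE, n = 4 arrays) did not pass the test (limma adjusted p = 0.755; 95% interval -0.30 to 0.18). The highest and the lowest ratio came from replicates 1 and 3, the arrays that paired cultures of opposite sex, and the part of sex in them was not tested.

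The 3 BRI genes were compared with each other by the difference of their ratios on the same array. Itm2c exceeded Itm2a by 0.69 ± 0.27 on the log2 scale (SD, n = 4 arrays) and Itm2b exceeded Itm2a by 0.47 ± 0.21. Itm2c exceeded Itm2b by 0.22 ± 0.17. Each difference was positive on 4 of 4 arrays. The two-sided exact sign-flip permutation p was 0.125 for each, and 0.125 after adjustment over the 3 pairs. That is the smallest p this test allows with 4 arrays. The test therefore could not reach 0.05 and does not decide whether the genes differ in their ratios. On replicate 4 the difference between Itm2c and Itm2b was 0.03, against 0.19 to 0.44 on the other arrays.

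**Figure D2:**
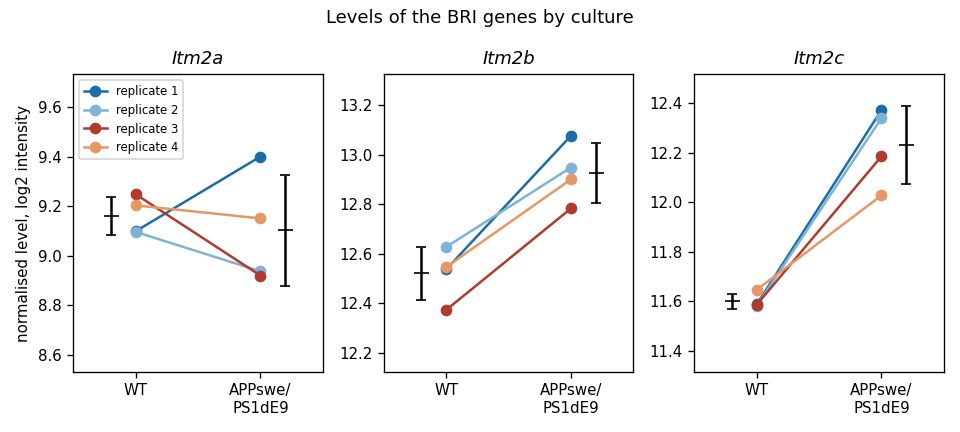
Normalised log2 intensity (y axis) of Itm2a, Itm2b and Itm2c in each culture, with a line joining the APPswe/PS1dE9 and WT cultures of an array and black bars for the mean ± SD of 4 cultures. The APPswe/PS1dE9 levels of Itm2b (12.78 to 13.08) and Itm2c (12.03 to 12.37) lie above every WT level of the same gene (12.37 to 12.63 and 11.58 to 11.65), and the levels of Itm2a overlap.

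None of the metallopeptidases passed the test. Ide encodes insulin-degrading enzyme, which cuts insulin and amyloid-beta. Its level in the APPswe/PS1dE9 cultures was 10.12, 10.32, 10.39 and 10.14, and in the WT cultures 10.12, 10.31, 10.11 and 10.10. The genotypes lay within 0.04 of each other on replicates 1, 2 and 4, and only replicate 3 had a larger ratio, of 0.28. The fitted ratio was 0.08 ± 0.07 (SE, n = 4 arrays; limma adjusted p = 0.519), and its 95% interval of -0.09 to 0.25 left out a change of the size measured for Itm2b.

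Mme encodes neprilysin, a main amyloid-beta peptidase of brain, and neither of its probes was measured well enough to be tested. The probe A_52_P93837 was well above background in 2 of the 4 APPswe/PS1dE9 cultures and 1 of the 4 WT cultures. Its raw median intensities were 124, 75, 74 and 97 in APPswe/PS1dE9 and 89, 75, 59 and 75 in WT, on replicates 1 to 4. The probe A_66_P113268 was well above background in 0 APPswe/PS1dE9 cultures and 1 WT culture. Without the filter the 2 probes had ratios of opposite sign, 0.24 ± 0.11 and -0.11 ± 0.07 (SE, n = 4 arrays; limma adjusted p = 0.456 and 0.578). Neprilysin transcript was therefore not detectable in most of these cultures, and no difference between the genotypes could be measured.

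Ece1 and Ece2 encode the endothelin-converting enzymes, relatives of neprilysin that cut amyloid-beta inside acidic compartments. The Ece1 level was 6.67, 7.69, 6.95 and 6.88 in the APPswe/PS1dE9 cultures and 6.93, 6.89, 6.96 and 6.94 in the WT cultures. Its APPswe/PS1dE9 culture on replicate 2 stood 0.80 above its WT partner, and the other ratios lay between -0.26 and -0.02. The fitted ratio of 0.12 ± 0.16 (SE, n = 4 arrays; limma adjusted p = 0.714) had the largest error among the members, with a 95% interval of -0.28 to 0.51. Without replicate 1 the ratio was 0.38, and without replicate 2 it was -0.15. Each of these fits had 1 array with APPswe/PS1dE9 in Cy3, so the arrays in its error were replicates 3 and 4 alone. The fit without replicate 1 was called higher, but its error did not take in the gap between 0.80 and the other ratios. The probe was well above background in 3 of 4 cultures of each genotype, missing on replicate 1 in APPswe/PS1dE9 and on replicate 2 in WT.

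The Ece2 level was 7.63, 7.42, 7.78 and 7.95 in the APPswe/PS1dE9 cultures and 7.47, 7.33, 7.84 and 7.66 in the WT cultures. The genotypes overlapped, with ratios of 0.16, 0.09, -0.05 and 0.29. The fitted ratio was 0.12 ± 0.08 (SE, n = 4 arrays; limma adjusted p = 0.407; 95% interval -0.07 to 0.31). The RefSeq table lists the readthrough gene Eef1akmt4-Ece2 under this symbol, so the probe may not separate the transcripts.

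Ace encodes angiotensin-converting enzyme, which also cuts amyloid-beta. Its level was 7.27, 7.16, 7.57 and 7.48 in the APPswe/PS1dE9 cultures and 7.23, 7.18, 7.30 and 7.21 in the WT cultures. The ratios were 0.27 and 0.28 on replicates 3 and 4 and 0.04 and -0.03 on replicates 1 and 2, so the arrays separated by dye orientation. The fitted ratio was 0.14 ± 0.06 (SE, n = 4 arrays; limma adjusted p = 0.231; 95% interval -0.01 to 0.29). On the scanner software's processed signals it was -0.07. The signal was dim, well above background in 3 of 4 APPswe/PS1dE9 cultures and in 4 of 4 WT cultures.

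Neither receptor passed the test. Sorl1 encodes SORL1, the sorting receptor that keeps APP out of late endosomes. Its level was 10.01, 10.20, 10.37 and 9.95 in the APPswe/PS1dE9 cultures and 10.06, 9.97, 9.93 and 9.72 in the WT cultures. The APPswe/PS1dE9 culture was the higher on 3 of 4 arrays, and the genotypes overlapped because of replicates 1 and 4. The ratios were -0.05, 0.23, 0.44 and 0.23, with a fitted ratio of 0.21 ± 0.08 (SE, n = 4 arrays; limma adjusted p = 0.160). Its 95% interval, not adjusted for the number of probes, ran from 0.02 to 0.40.

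Lrp1 encodes a large endocytic receptor for apolipoprotein E and amyloid-beta. Its level was 10.68, 10.79, 11.41 and 11.20 in the APPswe/PS1dE9 cultures and 10.34, 10.55, 10.96 and 11.31 in the WT cultures. The APPswe/PS1dE9 culture was the higher on replicates 1 to 3 and the lower on replicate 4. The ratios were 0.34, 0.24, 0.45 and -0.11, and the fitted ratio was 0.23 ± 0.10 (SE, n = 4 arrays; limma adjusted p = 0.230; 95% interval -0.01 to 0.48). The arrays differed more than the genotypes: both cultures of replicates 3 and 4 lay at 10.96 to 11.41 and both of replicates 1 and 2 at 10.34 to 10.79.

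The rest of the pathway was read from lists of related genes, each gene by its brightest kept probe. The lists were drawn up with earlier results of these data known, so their counts are no independent support. Of 69 listed genes 53 were measured, of which 7 were higher in APPswe/PS1dE9 cultures and 0 lower, with a median ratio of 0.00 against 0.01 over all kept probes, of which 6.89% were higher and 1.90% lower. The other 46 did not pass the test. Among the further amyloid-beta proteases 3 of 9 measured genes were higher, and the median was 0.15. These were Ctsb and Ctsd, the lysosomal cathepsins B and D, and Mmp2, the gelatinase that cuts extracellular matrix. Mmp9, Plau and Plg did not pass the filter on low signals. Mmp9 and Plau were well above background in 0 cultures, and Plg in 1 culture of each genotype.

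Ctsb had ratios of 0.93, 0.91, 1.05 and 0.97, giving 0.97 ± 0.06 (SE, n = 4 arrays; limma adjusted p = 0.000640), a larger ratio than that of any member. Ctsd had 0.89, 1.01, 0.71 and 0.61, giving 0.81 ± 0.06 (limma adjusted p = 0.00137), and its other probe gave 0.80. Both cathepsins were thus higher on every array, and Ctsb passed the test in 17 of 17 alternative analyses and Ctsd in 16, not passing on the same-sex arrays (adjusted p = 0.0549). Mmp2 had a fitted ratio of 0.54 ± 0.07 (limma adjusted p = 0.00860), which did not pass when replicate 3 (adjusted p = 0.0902) or 4 (adjusted p = 0.107) was left out. It passed in 11 of 17 alternatives, and the others it missed were the processed signals (adjusted p = 0.0544), the deposited table, the same-sex arrays (adjusted p = 0.195) and the opposite-sex arrays.

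Of the 14 measured relatives of Lrp1 and Sorl1 in the LDL receptor and Vps10 families, 2 were higher and the median ratio was -0.06. Lrp10, an LDL receptor relative that binds APP, had 0.43 ± 0.06 (SE, n = 4 arrays; limma adjusted p = 0.0123) with ratios of 0.51, 0.56, 0.38 and 0.26. It passed in 10 of 17 alternatives. The call was lost without replicate 3 (adjusted p = 0.0989), without replicate 4 (adjusted p = 0.0935), with median centring (adjusted p = 0.0619), processed signals (adjusted p = 0.0603) or the deposited table, and on the same-sex arrays (adjusted p = 0.302) or the opposite-sex arrays. Sorcs2, a Vps10 receptor for proneurotrophins, had 0.32 ± 0.07 (limma adjusted p = 0.0494) and passed in 4 of 17 alternatives. None of the 17 genes of retromer and endosomal sorting passed the test, and their ratios ran only from -0.12 to 0.16. The sorting machinery that SORL1 works with therefore showed no ratio as large as that of Itm2b or Itm2c.

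Of the 7 proteases that process BRI proteins, 1 was higher, and their median ratio was 0.07. This was Pcsk6, a furin-like convertase, at 0.29 ± 0.06 (SE, n = 4 arrays; limma adjusted p = 0.0362). Its ratios were 0.03 and 0.02 with APPswe/PS1dE9 in Cy3 and 0.59 and 0.54 with it in Cy5, so it was near 0 in 1 of the orientations. It passed in 4 of 17 alternatives. Furin itself had 0.29 ± 0.08 and did not pass (limma adjusted p = 0.0833). The other BRICHOS domain genes had 2 of 6 members measured. Cnmd, which encodes chondromodulin, was higher at 0.41 ± 0.07 (limma adjusted p = 0.0244), which did not pass when replicate 3 (adjusted p = 0.103) or 4 (adjusted p = 0.160) was left out. It passed in 10 of 17 alternatives, missing also with processed signals (adjusted p = 0.202), the deposited table or no filter, and on the same-sex arrays (adjusted p = 0.387) or the opposite-sex arrays. Of the neprilysin family beyond the members only Ecel1 was measured, at 0.14 (limma adjusted p = 0.277). None of 3 measured genes of the renin-angiotensin system beyond Ace passed, with a median of 0.09.

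**Figure D3:**
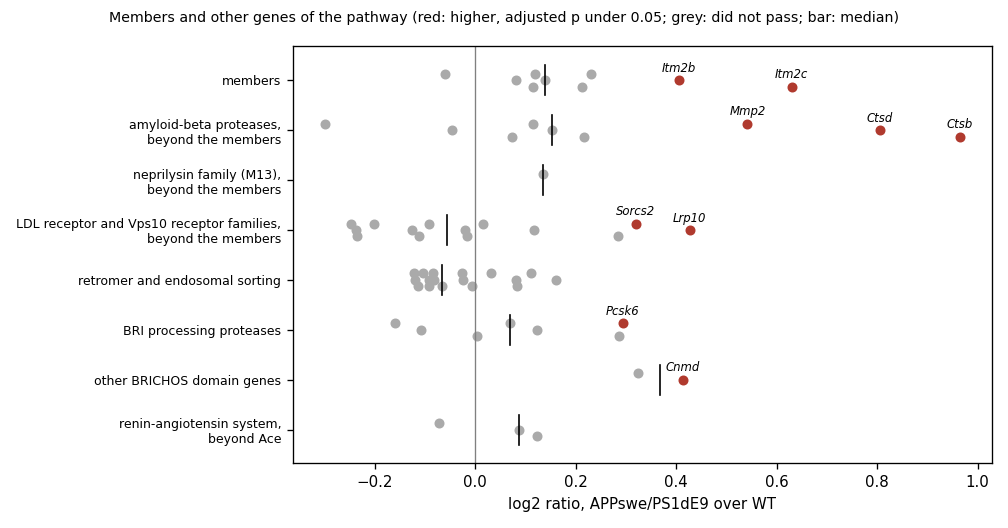
Fitted log2 ratio of APPswe/PS1dE9 over WT (x axis) of each measured member and of each measured gene of the related lists (rows), with genes past the test in red and named, the others in grey, and a bar at each list's median. Ctsb (0.97) and Ctsd (0.81) lie to the right of every member, and the 17 retromer and sorting genes lie between -0.12 and 0.16.

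Markers of several cell types differed between the genotypes beside Itm2b, Itm2c and the cathepsins. In bulk cultures a different number of cells of a type and a different amount of RNA per cell cannot be told apart. Of 10 microglial and macrophage markers 8 were measured and 7 were higher. Of these 7, Csf1r had 0.95 by its brightest kept probe and 0.02 by its other one. Aif1, well above background in every culture, had 2.22 ± 0.07 (SE, n = 4 arrays; limma). For 5 of the 8 the WT signal was well above background in only 1 or 2 of the 4 cultures. These 5, all among the 7 called higher, passed the filter through the APPswe/PS1dE9 cultures alone. The sizes of their ratios are not exact. The summed normalised intensity of the list was 11227 to 15061 in APPswe/PS1dE9 cultures and 8421 to 10544 in WT cultures. Itgam, which did not pass the test (0.11), made up 85.3% of the WT sum, so the sum mostly follows that probe. P2ry12 and Ptprc, defining markers of that list, were not kept. All 6 ependymal markers were higher, with a median of 1.46, and Foxj1 had 1.15 ± 0.08. Tmem212 was well above background in 1 of 4 WT cultures, so it too was kept through APPswe/PS1dE9 alone. The summed intensities of the ependymal list were 6510 to 8362 in APPswe/PS1dE9 against 2379 to 3331 in WT.

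Of 7 measured choroid plexus markers 4 were higher (Ttr 1.06 ± 0.13), with summed intensities of 9074 to 13656 against 7600 to 8389. Of these 4, Folr1 had 0.51 by its brightest kept probe and 0.02 by its other one. Of 9 astrocyte markers 4 were higher (Gfap 0.69 ± 0.06), with sums of 142284 to 157287 against 103443 to 126447. The other kept probes of Gfap had 0.42 and 1.16, so its SE does not cover the spread between probes. Aldoc made up 49.8% of the WT sum. Of 9 neuronal markers 1 was higher and 3 were lower, with sums of 87701 to 101199 against 96192 to 114221, and Tubb3 had -0.13. No marker of oligodendrocyte precursors (5 measured, Pdgfra -0.11) or of oligodendrocytes (6 measured, Mbp 0.09) passed the test. Endothelial markers gave 1 higher of 5 measured (Pecam1 0.17), with Cdh5, Tek, Cldn5 and Emcn not kept. The 1 higher, Flt1, was well above background in 3 APPswe/PS1dE9 cultures and 0 WT cultures, so it was kept through APPswe/PS1dE9 alone. Fibroblast and mural markers gave 2 lower of 7 measured (Col1a1 -0.03). Of these 2, Lum was well above background in 1 APPswe/PS1dE9 culture and 4 WT cultures, so it was kept through WT alone. Progenitor markers gave 1 higher and 1 lower of 7 measured (Nes 0.55, limma adjusted p = 0.0521). The neural and glial identity on the labels was thus met by Tubb3, Gfap and Mbp, all above background in every culture. The part of these cell types in the ratios of Itm2b, Itm2c, Ctsb and Ctsd was not tested.

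**Figure D4:**
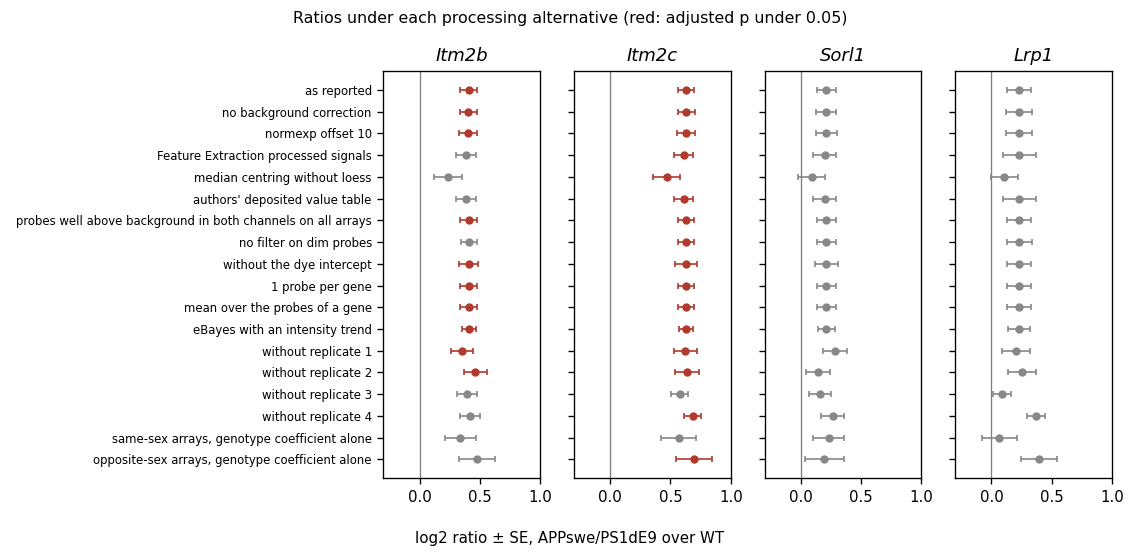
Fitted log2 ratio ± SE of APPswe/PS1dE9 over WT (x axis) of Itm2b, Itm2c, Sorl1 and Lrp1, as reported and under each alternative analysis (rows), in red where the adjusted p was under 0.05 and in grey otherwise. Itm2b lies between 0.23 and 0.47 and Itm2c between 0.47 and 0.69, and no point of Sorl1 or Lrp1 is red.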

How the data were processed

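Per the file headers, the authors scanned 4 arrays on 1 slide in 1 scan with Feature Extraction 11.0.1.1 and deposited median intensity values of spots and local background in both channels, not normalised. The same deposited files hold background-subtracted, dye-normalised intensity values with a log10 ratio of red (Cy5) to green (Cy3) signal. The authors also deposited a table of 29350 spots with no stated scale. Set against the scanner files, its deposited values were uncentred log2 ratios of the processed signals in the direction of APPswe/PS1dE9 over WT (slopes on log2 Cy5/Cy3 of -1.00, -1.00, 1.00 and 1.00), with medians of -0.0797, -0.155, -0.0373 and -0.0378.

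Signals were background-corrected by normexp (offset 50) and ratios by loess within each array in limma 3.58.1 (R 4.3.3), with control and outlier spots at weight 0 and then left out. Repeated spots were averaged. The filter kept a probe that 1 genotype's channel had well above background on 3 or more of the 4 arrays, which left 26898 of 55681. The fit (lmFit, eBayes) had a coefficient for genotype and an intercept for dye, with 2 degrees of freedom from the residuals and 4.16 from the prior, and two-sided p-values were adjusted by Benjamini-Hochberg. No dye term passed the threshold, but with 2 residual degrees of freedom this test is weak. It does not show that dye orientation had no part, and ratios correlated less between orientations than within 1, as given above. Levels came from loess followed by Aquantile scaling of average intensities. By accession, 27509 probes were named from a RefSeq table of GRCm38.p6, used for names only because the array annotation is mm9. Promoter sequences are RefSeq's, and all 10 members matched. A gene was read by its kept probe of highest mean intensity.

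Named genes were all members, up to 4 called genes of smallest p per related list, the first marker of each cell type list, App, Prnp, Xist and Eif2s3y. Other genes are named to give the content of a count or were chosen after their values were seen (Furin, Ecel1). The members and lists were chosen with earlier results of these data known. An item of the related lists is not reported here. The fit was tested on simulated data. Alternatives changed the background correction, normalisation, filter, dye term, probe rule, moderation and arrays used. The number of arrays limits the precision.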

Additional observations from a re-analysis of the deposited data

Results flagged for a closer look

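In 27 groups of 4 values (the ratios and the levels in each genotype of the 9 measured members), 3 had 1 value far from the others by Dixon's criterion. Chance marks about 1 group in 20. For Ide the ratio of 0.28 on replicate 3 stood apart from 0.00 to 0.04 on the other arrays. The WT level of Ide was 10.31 on replicate 2, against 10.10 to 10.12. The WT level of Itm2c was 11.65 on replicate 4, against 11.58 to 11.59, and the Itm2c ratio of 0.38 on that array was the smallest of the 4.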

How the results depend on the processing

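Itm2c had ratios past the threshold in all alternatives except without replicate 3 and on the same-sex arrays (0.57, limma adjusted p = 0.157), with 0.58 to 0.68 when leaving out 1 replicate. Itm2b kept its direction throughout but did not pass with processed signals (0.38), the deposited table (0.38) or median centring without loess (0.23). It also did not pass with no filter on dim probes (0.41), on the same-sex arrays (0.34) or on the opposite-sex arrays (0.47). With 1 replicate left out it ran from 0.35 to 0.46, and the call was lost without replicate 3 (0.39) and without replicate 4 (0.42). Signs turned for Ide with median centring (-0.042), for Ace with processed signals (-0.075) and the deposited table (-0.075), and for Ece1 on the opposite-sex arrays (-0.14). Leaving out 1 replicate gave -0.15 to 0.38 for Ece1 and -0.17 to 0.055 for Itm2a. Ece1 was called higher without replicate 1, where replicate 2 was the only array with APPswe/PS1dE9 in Cy3. The members called higher, 2 as reported, were 1 with processed signals, the deposited table, median centring, no filter or the opposite-sex arrays, 0 on the same-sex arrays and 0 to 3 without 1 replicate.

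The related genes called higher, 7 as reported, were 2 with processed signals, 2 with the deposited table, 4 with median centring, 4 with no filter, 1 on the same-sex arrays, 2 on the opposite-sex arrays and 2 to 9 without 1 replicate. Those called lower, 0 as reported, were 5 with median centring, 1 with a filter on both channels, 1 with an intensity trend and 0 to 1 without 1 replicate. Of all probes, 1852 were higher as reported, 763 with processed signals, 752 with the deposited table, 1050 with no filter, 458 and 636 on the same-sex and opposite-sex arrays, and 363 to 2835 without 1 replicate. The 512 lower became 300 with no background correction, 231 with processed signals, 216 with the deposited table, 1675 with median centring, 98 with no filter, 301 without the dye intercept, 7 and 19 on the same-sex and opposite-sex arrays, and 5 to 721 without 1 replicate. The causes of these shifts were not tested.

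Ece1 and Ace gave no value under the filter on both channels, and a block for slide was not run because all arrays lay on 1 slide. No further paired analysis was possible because each ratio in the fit already pairs the 2 cultures of an array. The opposite-sex alternative was chosen after seeing the data. Mme, Ece1 and Ace lay near background, which limits their ratios.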

Other observations

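Some members differed between the pairs of arrays by as much as between the genotypes. The mean level of Lrp1 over both genotypes was 10.59 on replicates 1 and 2 and 11.22 on replicates 3 and 4, a difference of 0.63, as large as the genotype ratio of Itm2c. For Ece2 the corresponding difference was 0.35, and its levels of 7.33 to 7.63 on replicates 1 and 2 lay below the 7.66 to 7.95 of replicates 3 and 4. For Itm2b and Itm2c the mean level was lower on replicates 3 and 4, by -0.15 and -0.11. Each of these means holds both dyes in equal number. The cultures and the arrays they were measured on cannot be told apart in them.

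Nrd1, which encodes nardilysin, a relative of insulin-degrading enzyme, had a ratio below 0 on 4 of 4 arrays (-0.45, -0.18, -0.25 and -0.31), while the ratio of Ide was 0.00 to 0.28. Its fitted ratio of -0.30 ± 0.07 (SE, n = 4 arrays) did not pass the test (limma adjusted p = 0.0562), and it was chosen after its values were seen.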
